A study of Mus musculus with 6 samples.

Results

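Mouse mitochondrial DNA encodes a small set of respiratory chain subunits, and the RNA of 10 of these protein genes was followed here in the macrophage-like mouse cell line RAW264.7. The 10 genes were taken by name: mt-Nd1, mt-Nd2, mt-Nd4, mt-Nd5 and mt-Nd6 of complex I, mt-Cytb of complex III, mt-Co1, mt-Co2 and mt-Co3 of complex IV, and mt-Atp6 of complex V. Each matched 1 row by its Ensembl identifier, so that they make up 10 of the 23154 genes in the deposited table. In the GENCODE M21 annotation the mouse mitochondrial genome holds 37 genes, of which 13 encode proteins, 22 encode tRNAs and 2 encode rRNAs. Of these, 24 were in the table, and the 14 that were not on the list are described beside the 10.

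The NUR77 libraries came from a stable line carrying pINDUCER20b-HA-NUR77, a doxycycline-inducible construct for the HA-tagged nuclear receptor NUR77, and the GFP libraries from a stable line carrying pINDUCER20b-GFP. There were 3 dishes of each line, with 1 library per dish. Both lines received doxycycline at 1 µg/mL for 18 h, from 24 h after seeding, and polyadenylated RNA was sequenced with a strand-specific kit. The comparison asks which transcripts differ when NUR77 in place of GFP is induced, in a study concerned with mitochondrial metabolism and inflammation in macrophages. Each group is 1 line, and whether it was a clone or a pool is not stated by the labels, so a difference between the lines and an effect of the transgene cannot be told apart. Doxycycline is an antibiotic known to inhibit protein synthesis on mitochondrial ribosomes; all 6 cultures received it, and no culture without it was analysed here.

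As background, mitochondrial DNA is transcribed by its own polymerase, POLRMT, with TFAM and TFB2M, into long RNAs from both strands. These are cut, largely at the tRNAs between the genes, into rRNAs, tRNAs and mRNAs, and levels of the mature mRNAs depend on synthesis, on polyadenylation by MTPAP, on protection by the LRPPRC and SLIRP complex and on decay by PNPT1 and SUPV3L1. The encoded proteins join nuclear-encoded subunits in the respiratory chain, which contributes to macrophage ATP and can also release reactive oxygen species. Of the 10 genes, 9 lie on the plus strand of the reference and 1, mt-Nd6, on the minus strand. In human mitochondria the ND6 mRNA is known to lack a stable poly(A) tail, so oligo-dT purification does not recover all of these RNAs alike.

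Values are given as normalized reads, a gene's reads scaled to a library total of 10000000 reads on genes. The libraries held 11199468, 14354453 and 12569310 gene-counted reads in NUR77 replicates 1, 2 and 3, and 14350490, 15929487 and 15299884 in GFP replicates 1, 2 and 3, so that 1 read was worth 0.628 to 0.893 normalized reads. Nr4a1, the mouse gene for NUR77, had 288, 314 and 297 normalized reads in NUR77 libraries, against 170, 148 and 161 in GFP libraries; the species of the transgene is not given, and its reads and those of the endogenous gene were not separated. All 10 macrophage markers examined had reads in every library, with summed levels of 29350 to 30925 normalized reads in NUR77 libraries and 77232 to 78725 in GFP libraries. Most of that gap lay in Lyz2, with 2144 to 3126 in NUR77 libraries and 26028 to 27627 in GFP libraries, and in Mpeg1, with 910 to 1151 in NUR77 libraries and 16376 to 16874 in GFP libraries. Cd68, Csf1r, Adgre1 and Cd14 were also lower in each NUR77 library than in any GFP library, Itgam (9201 to 9975 in NUR77 libraries, 4175 to 4288 in GFP libraries) and Fcgr1 were higher, and Spi1 and Ptprc overlapped. The library of NUR77 replicate 1 stood apart from the other NUR77 libraries in skeletal muscle and fibroblast markers. The 19 muscle markers summed to 449, 168 and 155 normalized reads in NUR77 replicates 1, 2 and 3, and to 468, 412 and 443 in GFP replicates, where Tnni2 alone gave 385, 336 and 372. The 5 fibroblast markers summed to 92.9, 32.0 and 22.3 in NUR77 libraries and to 22.3, 20.7 and 17.6 in GFP libraries, with Pdgfra at 0 in all. The 3 T cell markers Cd3d, Cd3e and Cd3g and the 3 neuron markers Rbfox3, Snap25 and Syt1 were listed at 0 in every library, and the epithelial, B cell and erythroid lists summed to 3.14 or less. The part of these markers in the results below was not tested, and values without NUR77 replicate 1 are given beside the members' fold changes, summed share and log2 ratios and beside the list counts.

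The mouse nuclear genome carries copies of mitochondrial DNA, and a read that fits both places can be assigned to neither or either, so the sequences come before the levels. On the minus strand of chromosome 1 (mm10), the annotation lists a row of pseudogenes, the outer ones Gm28439 at chr1:24611535-24612410 and Gm29216 at chr1:24615706-24616197. In a BLAST comparison of annotated transcripts, Gm28661 matched mt-Co2 at 681 of 681 aligned bases, Gm28437 matched mt-Co3 at 783 of 783, Gm10925 matched mt-Atp6 at 678 of 678 and Gm28439 matched mt-Nd4 at 876 of 876. Gm29216 matched mt-Co1 at 482 of 483 aligned bases, and Gm28438 matched mt-Nd3, which is not among the 10, at 344 of 345. The following stretches of 60 bases show an identical pair, a pair with 1 difference and a pair with several; capitals mark the bases that differ within a pair. They are read 5′ to 3′ on each gene's own strand from the GENCODE M21 transcripts (mm10).
mt-Co3: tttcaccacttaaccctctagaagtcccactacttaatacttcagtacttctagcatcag
Gm28437: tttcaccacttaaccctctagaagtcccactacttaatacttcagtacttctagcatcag
mt-Co1: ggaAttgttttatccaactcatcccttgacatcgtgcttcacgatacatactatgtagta
Gm29216: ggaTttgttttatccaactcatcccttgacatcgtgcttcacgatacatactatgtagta
mt-Cytb: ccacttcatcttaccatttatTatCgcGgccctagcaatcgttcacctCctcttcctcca
Gm11410: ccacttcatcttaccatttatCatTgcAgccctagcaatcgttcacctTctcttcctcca
mt-Nd6: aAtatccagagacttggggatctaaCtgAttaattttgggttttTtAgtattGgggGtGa
Gm11408: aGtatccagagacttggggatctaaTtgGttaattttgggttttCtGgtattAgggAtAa
The mt-Co3 stretch is chrM:8968-9027 on the plus strand, and its copy in Gm28437 is chr1:24613551-24613610 on the minus strand; the 60 bases are the same. The mt-Co1 stretch is chrM:6390-6449 on the plus strand and its copy in Gm29216 is chr1:24616129-24616188 on the minus strand, with the single difference A1066T, in which the mitochondrial base comes first and the position counts from the first base of the mitochondrial gene. The mt-Cytb stretch, chrM:14687-14746 on the plus strand, differs from Gm11410 at chr4:80004531-80004590 on the plus strand by T564C, C567T, G570A and C591T. The mt-Nd6 stretch, chrM:13782-13841 on the minus strand, differs from Gm11408 at chr4:80003626-80003685 on the minus strand at 8 bases. All 4 mitochondrial stretches lie in the single exon of a protein-coding gene.

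How much of each gene is shared in this way split the 10 genes. Every transcript was read in overlapping windows of 50 bases, and a window was called shared where it also occurred exactly in an annotated nuclear transcript. The shared windows came to 100% for mt-Co2, 99.9% for mt-Co3 and 99.5% for mt-Atp6. They came to 62.2% for mt-Nd4, 51.1% for mt-Co1, 8.19% for mt-Nd2 and 7.61% for mt-Nd5, and to 0% for mt-Nd1, mt-Nd6 and mt-Cytb. With windows of 100 bases mt-Co1 fell to 30.8% and mt-Nd5 to 0%, while mt-Nd4 was at 60.8%. No genome sequence was used, so copies outside annotated transcripts were not counted, and how the authors' counting treated reads that fit more than 1 place is not stated in the labels.

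The 3 genes shared almost whole had the fewest counted reads among the 10. mt-Co2, which encodes the complex IV subunit that accepts electrons from cytochrome c, had 4.46, 2.79 and 3.98 normalized reads in NUR77 libraries, against 4.18, 7.53 and 5.23 in GFP libraries. mt-Co3, another core subunit of complex IV, had 0.893, 1.39 and 0.796 in NUR77 libraries, against 0, 0.628 and 2.61 in GFP libraries. mt-Atp6, the membrane subunit of the proton channel of ATP synthase, had 4.46, 4.88 and 4.77 in NUR77 libraries, against 9.06, 6.91 and 7.19 in GFP libraries. The groups overlapped for mt-Co2 and mt-Co3, and for mt-Atp6 each NUR77 library lay below each GFP library. In all 3 libraries together these were 14 reads in NUR77 and 26 in GFP for mt-Co2, 4 and 5 for mt-Co3, and 18 and 35 for mt-Atp6. Scaled to depth, the ratios of NUR77 to GFP were 0.644 for mt-Co2 (95% interval 0.311 to 1.28), 0.957 for mt-Co3 (0.190 to 4.44) and 0.615 for mt-Atp6 (upper bound 1.12, lower bound 0.328), intervals that cover counting error only and take in a ratio of 1. The 3 genes had means under 10 normalized reads, the lowest mean that was tested, so that they were left out of the test given below. In a fit without that limit, over all genes with reads, they were not called either, with log2 fold changes of −0.47 for mt-Co2 (limma adjusted p = 0.353), 0.16 for mt-Co3 (0.792) and −0.60 for mt-Atp6 (0.168). For mt-Co3, with 4 and 5 reads, the ratio lay under 1 and the log2 fold change above 0, so its direction is not settled. A difference for these 3 genes was not detectable with so few counted reads. How reads that fit more than 1 place were counted is not stated, so these values may not stand for RNA levels. mt-Atp8, which lies partly over mt-Atp6 and had 0% of its windows shared, averaged 5692 normalized reads in NUR77 libraries and 8617 in GFP libraries.

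**Figure D1:**
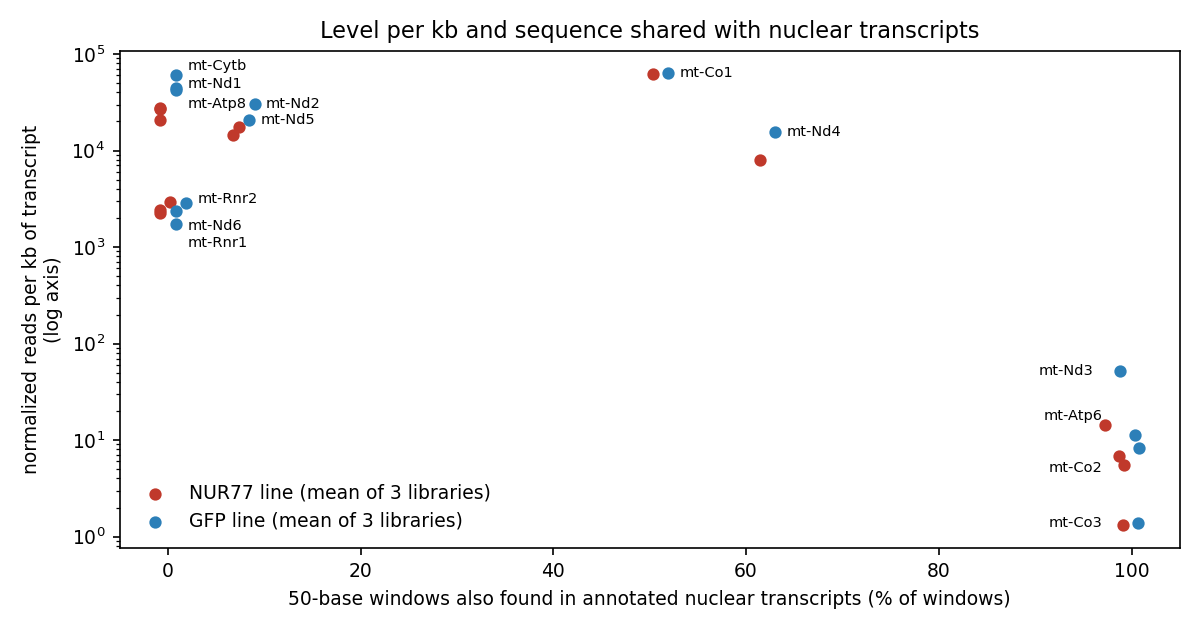
Mean normalized reads per kb of transcript (log axis) of each mitochondrially encoded protein gene and rRNA against the percentage of its 50-base windows that also occur in annotated nuclear transcripts; points are the means of 3 libraries, NUR77 in red drawn slightly to the left and GFP in blue slightly to the right of the same percentage. mt-Co2, mt-Co3, mt-Atp6 and mt-Nd3, with 98.0% to 100% of windows shared, lie far below the other genes in both lines.

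The copies that were in the table had few reads. By the rule of at least 100 aligned bases at 95% identity or more, 11 annotated nuclear genes hold a copy of a mitochondrial protein gene; 6 of these were in the table, and 2 had a mean of 1 normalized read or more. Gm13340, which matches mt-Co1 at 1508 of 1545 aligned bases, had 26.8, 34.8 and 39.0 normalized reads in NUR77 libraries, against 34.1, 34.5 and 35.3 in GFP libraries. Gm13341, a copy of mt-Co2, had 16.1, 14.6 and 19.9 in NUR77 libraries, against 24.4, 21.3 and 29.4 in GFP libraries. The groups overlapped for Gm13340 (log2 fold change −0.06, limma adjusted p = 0.78) and not for Gm13341 (log2 fold change −0.54, limma adjusted p = 0.0419), whose call was lost in 5 of 16 alternatives with adjusted p up to 0.178. Of the chromosome 1 row, Gm28438 was listed at 0 in all libraries and Gm29216 had 1 read, in GFP replicate 1. Gm28661, Gm28437, Gm10925 and Gm28439, whose aligned bases all matched, were not in the table, so their reads are not known.

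The other 7 genes were tested together with every gene at a mean of 10 normalized reads or more, with limma on log2(normalized reads + 1) and p-values adjusted by Benjamini-Hochberg over 11201 genes. A gene is called here at an adjusted p under 0.05, and log2 fold changes are NUR77 over GFP. Of the 7 tested, 5 were called lower in NUR77 cells and 1 was called higher, which makes 6 called; among all tested genes 66.7% were called, 28.3% lower and 38.4% higher. In all 7 the NUR77 and GFP libraries did not overlap, which held for 70.6% of all tested genes, with 30.3% lower and 40.3% higher in NUR77 cells; among the 7, 6 were lower and 1 was higher. The median log2 fold change of the 7 was −0.78, beside 0.06 for all tested genes. These are counts over the genes that passed the limit on low values, not over all 10.

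**Figure D2:**
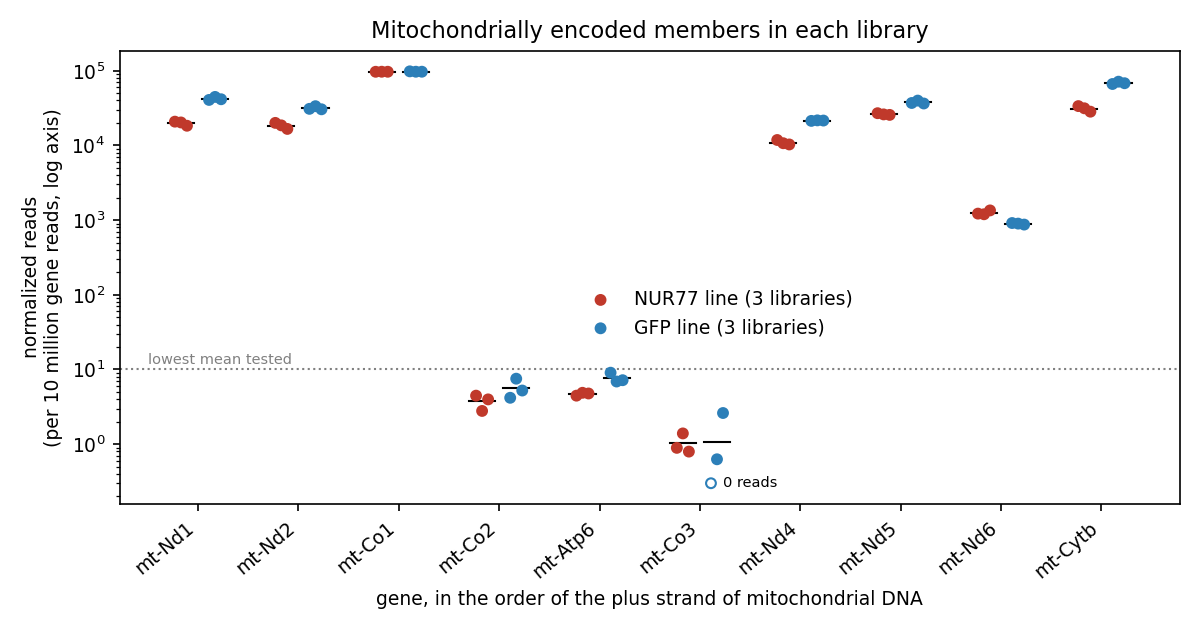
Normalized reads (log axis) of the 10 genes in each library, in the order of the plus strand, with NUR77 in red left of GFP in blue and the mean of 3 libraries as a black line. The open symbol stands for mt-Co3 in GFP replicate 1, which had 0 reads, and the dotted line is the lowest mean that was tested, 10 normalized reads; mt-Nd6 alone among the tested genes lies higher in NUR77 libraries and mt-Co1 lies at the same height in both lines.

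The mtDNA-encoded subunits of complex I form part of its membrane arm, which pumps protons, while the arm that oxidises NADH is nuclear-encoded. mt-Nd1 (chrM:2751-3707, plus strand), which encodes the subunit at the foot of the quinone site, had 20828, 20318 and 18357 normalized reads in NUR77 libraries, against 40690, 44649 and 41552 in GFP libraries. All 3 NUR77 libraries lay far under the lowest GFP library. The means were 19834 ± 1305 in NUR77 libraries and 42297 ± 2082 in GFP libraries (SD, n = 3 each), a log2 fold change of −1.09 (SE 0.05, 95% interval −1.21 to −0.98, limma adjusted p = 1.4e-11). Since no window of mt-Nd1 is shared, this value rests on sequence with no exact annotated nuclear match.

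mt-Nd2 (chrM:3914-4951, plus strand), which encodes an antiporter-like subunit of the membrane arm, had 20050, 18568 and 16648 normalized reads in NUR77 libraries, against 30913, 33544 and 30487 in GFP libraries. The lines were well apart, with a smaller gap than for mt-Nd1. The log2 fold change was −0.78 (SE 0.06, 95% interval −0.91 to −0.65, limma adjusted p = 1.25e-08), and the means were 18422 ± 1705 in NUR77 libraries and 31648 ± 1656 in GFP libraries. mt-Nd4 (chrM:10167-11544, plus strand), another antiporter-like subunit, had 11829, 10710 and 10309 in NUR77 libraries, against 21323, 21671 and 21543 in GFP libraries. The GFP libraries were close together and all above the NUR77 libraries. Its log2 fold change was −0.98 (SE 0.05, 95% interval −1.09 to −0.87, limma adjusted p = 3.53e-11), with 62.2% of its windows shared with Gm28439.

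mt-Nd5 (chrM:11742-13565, plus strand), which encodes the subunit at the far end of the membrane arm, fell less than the other complex I genes of its strand. It had 27024, 26044 and 25652 normalized reads in NUR77 libraries, against 37029, 39863 and 36462 in GFP libraries. No NUR77 library reached the lowest GFP library. The means were 26240 ± 707 and 37785 ± 1822 in NUR77 and GFP libraries, a log2 fold change of −0.53 (SE 0.05, limma adjusted p = 3.79e-08), and its 95% interval of −0.63 to −0.43 (limma) does not meet that of mt-Nd2.

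mt-Nd6 (chrM:13552-14070, minus strand), which encodes a membrane subunit beside the quinone channel, rose in NUR77 cells. It had 1222, 1198 and 1349 normalized reads in NUR77 libraries, against 914, 898 and 872 in GFP libraries. Every NUR77 library lay above every GFP library. The means were 1257 ± 81.2 in NUR77 libraries and 895 ± 21.4 in GFP libraries (SD, n = 3 each), which puts NUR77 cells at 140% of GFP cells (log2 fold change 0.49, SE 0.06, 95% interval 0.37 to 0.61, limma adjusted p = 1.04e-06). Its end overlaps that of mt-Nd5 on the opposite strand, and it lies over the stretch from which RNA of the plus strand is also made. Whether the counting used strand is not stated in the labels, so reads of mt-Nd6 and reads of RNA from the opposite strand cannot be told apart.

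mt-Cytb (chrM:14145-15288, plus strand), which encodes the cytochrome b of complex III, had the largest fall among the 7 tested genes. It had 33639, 31439 and 28325 normalized reads in NUR77 libraries, against 66479, 71419 and 68090 in GFP libraries. The highest NUR77 library was far under the lowest GFP library. The means were 31134 ± 2670 and 68663 ± 2520 in NUR77 and GFP libraries, a log2 fold change of −1.14 (SE 0.06, 95% interval −1.26 to −1.02, limma adjusted p = 1.84e-11). That interval meets the one of mt-Nd1. Since both genes were measured in the same libraries, their separate intervals do not test the order of these falls, which is not settled.

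mt-Co1 (chrM:5328-6872, plus strand), which encodes the catalytic subunit of complex IV, was not called. It had 96930, 97064 and 97002 normalized reads in NUR77 libraries, against 98225, 97105 and 97116 in GFP libraries. The NUR77 libraries lay below the GFP libraries without overlap, but the gap between the nearest libraries was tiny beside the level. The means were 96999 ± 66.8 in NUR77 libraries and 97482 ± 643 in GFP libraries, a log2 fold change of −0.01 (SE 0.04, limma adjusted p = 0.885), and the 95% interval of −0.09 to 0.08 bounds the change. The spread among the NUR77 libraries, 0.0689% of the mean, was below the 0.286% that counting error alone gives, and in GFP libraries it was 0.66% beside 0.26%. The share of windows held in common with nuclear transcripts was 51.1% for mt-Co1, and whether this bears on its level was not tested.

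Without NUR77 replicate 1 the same 6 genes were called, with log2 fold changes of −1.13 for mt-Nd1, −0.85 for mt-Nd2, −1.03 for mt-Nd4, −0.55 for mt-Nd5, 0.51 for mt-Nd6, −1.20 for mt-Cytb and −0.01 for mt-Co1. In bulk RNA, fewer cells of a type, fewer mitochondria or mtDNA copies and less RNA per copy cannot be told apart.

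**Figure D3:**
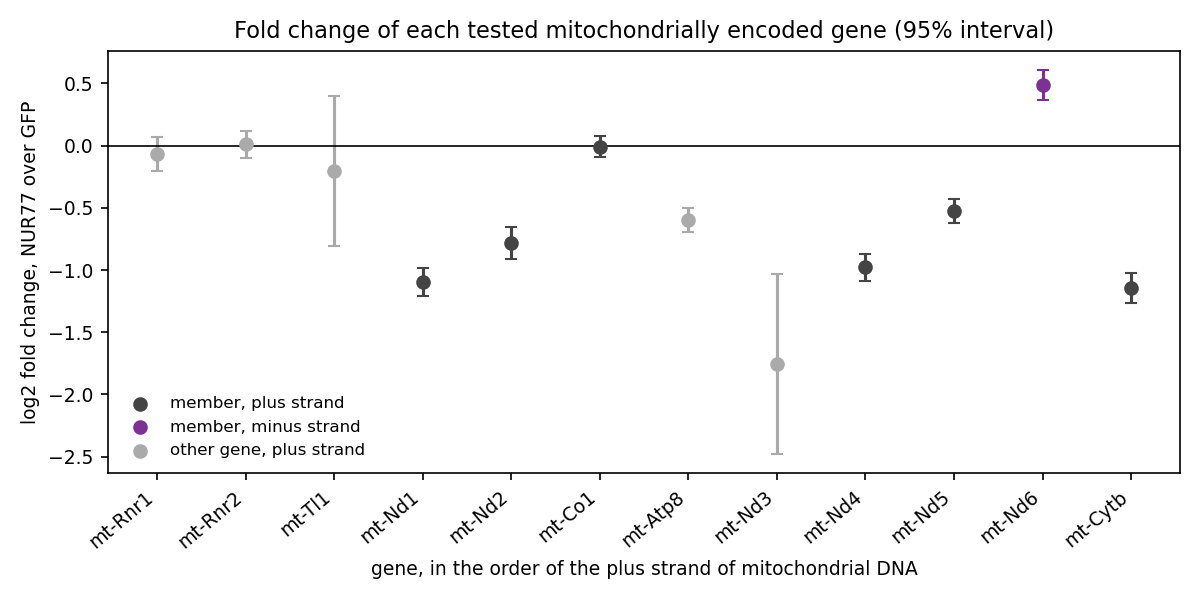
log2 fold change, NUR77 over GFP, of each tested mitochondrially encoded gene in the order of the plus strand, with its 95% interval from limma. mt-Nd6, the tested gene of the minus strand, is at 0.49, mt-Co1 is at −0.01, and the other 5 of the listed genes lie between −1.14 and −0.53.

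Among the mitochondrial genes beside the 10, mt-Atp8, the small ATP synthase subunit that lies beside and partly over mt-Atp6, gave the readable complex V value. It had 5698, 5644 and 5735 normalized reads in NUR77 libraries, against 8634, 8961 and 8257 in GFP libraries. NUR77 libraries were all lower (log2 fold change −0.60, limma adjusted p = 6.69e-09). mt-Nd3, a complex I subunit with 98.0% of its windows shared, had 6.25, 6.27 and 2.39 in NUR77 libraries, against 15.3, 20.7 and 18.3 in GFP libraries. It was called lower (log2 fold change −1.75, SE 0.34, limma adjusted p = 0.000246), but its mean passed the limit of 10 normalized reads only through the GFP libraries, so that its place among the tested genes is not independent of its difference. In the fit without a limit its limma adjusted p was 9.39e-06, and without GFP replicate 2 it fell under the limit and was not tested. For the rRNAs of the mitochondrial ribosome, mt-Rnr1 had 2400, 1989 and 2061 in NUR77 libraries, against 2148, 2277 and 2322 in GFP libraries, and mt-Rnr2 had 4921, 4420 and 4467 in NUR77 libraries, against 4534, 4551 and 4618 in GFP libraries. Neither was called (log2 fold changes −0.07 and 0.01, limma adjusted p = 0.354 and 0.88), and the NUR77 and GFP libraries overlapped for both. The call on mt-Rnr1 rests on NUR77 replicate 1, without which its log2 fold change was −0.15 with limma adjusted p = 0.0213, and mt-Rnr2 changed sign under 5 alternatives. mt-Tl1, a leucine tRNA gene, had 12.5, 14.6 and 12.7 in NUR77 libraries, against 11.1, 13.8 and 23.5 in GFP libraries, and was not called (limma adjusted p = 0.545). The other tRNA genes in the table had 0 to 2.09 normalized reads in every library.

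Summed, the 10 genes took a smaller share of the gene-counted reads in NUR77 cells. They held 2.12%, 2.05% and 1.98% of gene-counted reads in NUR77 libraries, against 2.96%, 3.09% and 2.96% in GFP libraries. The lines did not overlap; the difference of means was −0.955 percentage points, and the exact two-sided permutation p was 0.1, the smallest that 3 against 3 libraries allow. Without NUR77 replicate 1 the difference was −0.988 points. Members of complex I held 0.767% in NUR77 libraries and 1.34% in GFP libraries, a ratio of 0.572, and mt-Cytb held 0.311% and 0.687%, a ratio of 0.453. The complex IV genes, which are mt-Co1 almost alone, held 0.970% and 0.975%, a ratio of 0.995. Since mt-Co2, mt-Co3 and mt-Atp6 had almost no counted reads, the sum hardly takes them in. Their RNA may be missing from it, as may reads in the shared sequence of mt-Nd4 and mt-Co1. Without mt-Co1 the other 9 held 1.08% in NUR77 libraries and 2.03% in GFP libraries, a ratio of 0.532.

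Ratios inside a library do not depend on how the libraries are scaled to each other, and they show how unequal the changes were. mt-Co1 took 45.8%, 47.3% and 49.1% of the reads on the 10 genes in NUR77 replicates 1, 2 and 3, against 33.2%, 31.4% and 32.8% in GFP replicates. There were 2.88, 3.09 and 3.42 reads of mt-Co1 per read of mt-Cytb in NUR77 libraries, against 1.48, 1.36 and 1.43 in GFP libraries. Between the overlapping neighbours on opposite strands, there were 22.1, 21.7 and 19.0 reads of mt-Nd5 per read of mt-Nd6 in NUR77 libraries, against 40.5, 44.4 and 41.8 in GFP libraries. The lines did not overlap in any of these, and each exact two-sided permutation p was 0.1, the smallest the design allows. With the 10-gene sum less the gene itself as the base, the log2 ratio differed between NUR77 and GFP by 1.04 for mt-Nd6 and 0.91 for mt-Co1, and by −0.73 for mt-Cytb, −0.61 for mt-Nd1, −0.45 for mt-Nd4 and −0.26 for mt-Nd2. The lines did not overlap for these 6, with exact permutation p = 0.1 and 0.117 after adjustment over the 7 genes. The exception was mt-Nd5, at 0.03 with overlapping lines (exact permutation p = 0.3). Without NUR77 replicate 1 the differences were 1.09 for mt-Nd6, 0.95 for mt-Co1, −0.77 for mt-Cytb, −0.63 for mt-Nd1, −0.49 for mt-Nd4, −0.30 for mt-Nd2 and 0.03 for mt-Nd5. With mt-Cytb alone as the base, mt-Nd1, mt-Nd2 and mt-Nd4 turned to 0.05, 0.36 and 0.17, because the mean fall of mt-Cytb was larger than theirs. The order of mt-Cytb and mt-Nd1 was not settled.

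**Figure D4:**
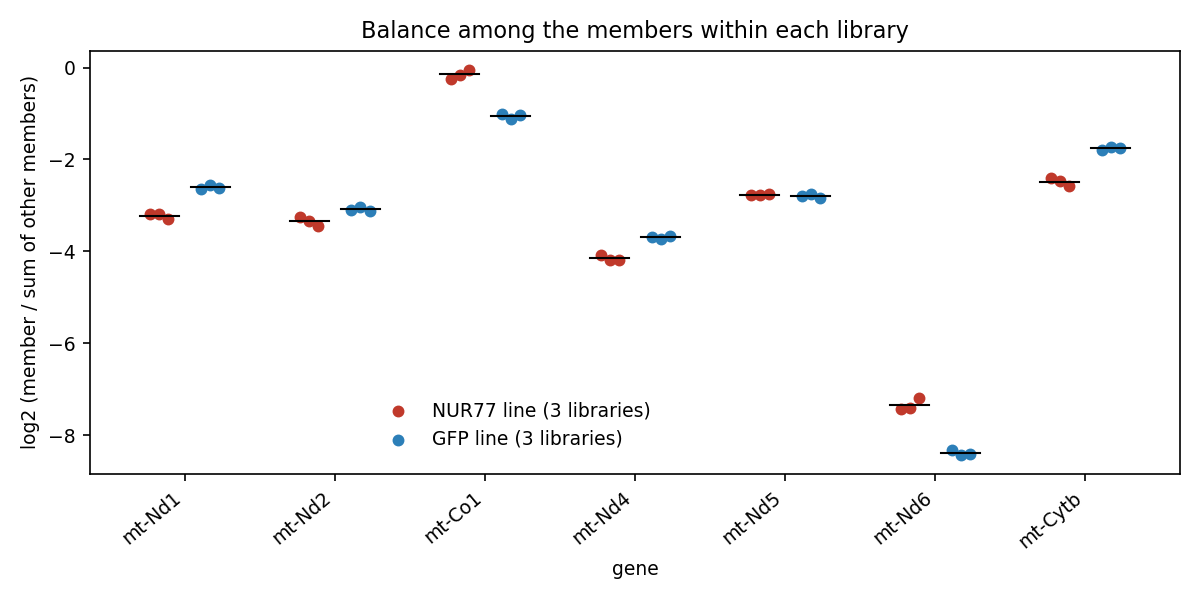
log2 of each tested gene's reads over the summed reads of the other 9 listed genes, 1 point per library, NUR77 in red left of GFP in blue, with the mean of 3 libraries as a black line. mt-Co1 and mt-Nd6 are higher in NUR77 libraries by 0.91 and 1.04, mt-Nd5 overlaps, and mt-Nd1, mt-Nd2, mt-Nd4 and mt-Cytb are lower.

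Per kb of transcript, the counted reads of the 10 genes stood in the same order in both lines. The places of mt-Atp6, mt-Co2 and mt-Co3, which are shared almost whole, may not reflect RNA levels. In NUR77 libraries the order was mt-Co1 at 62782, mt-Cytb at 27215, mt-Nd1 at 20725, mt-Nd2 at 17748, mt-Nd5 at 14386, mt-Nd4 at 7946 and mt-Nd6 at 2421 normalized reads per kb, and then mt-Atp6, mt-Co2 and mt-Co3 at 6.91, 5.47 and 1.31. In GFP libraries mt-Co1 was at 63095, mt-Cytb at 60020, mt-Nd1 at 44197, mt-Nd2 at 30490, mt-Nd5 at 20715, mt-Nd4 at 15611 and mt-Nd6 at 1724, and mt-Atp6, mt-Co2 and mt-Co3 at 11.3, 8.26 and 1.38. Neighbours overlapped for mt-Nd1 and mt-Nd2 in NUR77 libraries and for mt-Atp6 and mt-Co2 in GFP libraries; the first overlap rests on NUR77 replicate 1, where mt-Nd2 was at 19316 per kb, above the lowest mt-Nd1 value of 19181. Counted per 1000 unshared windows, in place of per kb, mt-Nd4 was at 21811 in NUR77 libraries and 42854 in GFP libraries, close to mt-Nd1 at 21844 and 46582. On that scale mt-Co1 was at 132693 in NUR77 libraries and 133354 in GFP libraries, and mt-Cytb was at 28433 in NUR77 libraries and 62706 in GFP libraries. The nearness of mt-Co1 and mt-Cytb per kb in GFP cells was not seen on this second scale. That scale takes reads in shared windows as not counted, which the labels do not state.

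The nuclear-encoded partners of these subunits were more often called lower than higher in NUR77 cells. Of 76 tested partner subunits of complexes I, III, IV and V, 8 were called higher in NUR77 cells and 32 lower, with a median log2 fold change of −0.11; over all tested genes 38.4% were called higher and 28.3% lower, with a median of 0.06. For complex I the counts were 3 higher and 13 lower of 36 (median −0.11), for complex III 1 and 4 of 9 (−0.15), for complex IV 2 and 7 of 14 (−0.12) and for complex V 2 and 8 of 17 (−0.04). The complex III count of 5 called genes was 3 without GFP replicate 1 and 2 without GFP replicate 3. Without NUR77 replicate 1 the counts were 4 higher and 14 lower for complex I, 1 and 4 for complex III, 2 and 7 for complex IV and 3 and 7 for complex V. The shares called, 44.4% to 64.3% by complex, stand beside the 66.7% of all tested genes. In complex I, Ndufb5, a membrane-arm accessory subunit, averaged 450 ± 14.1 normalized reads in NUR77 libraries and 773 ± 11.1 in GFP libraries (log2 fold change −0.78, limma adjusted p = 2.89e-09), and Ndufv3, of the NADH-oxidising arm, averaged 816 in NUR77 libraries and 661 in GFP libraries (0.30, limma adjusted p = 0.00869). In complex III, Uqcrq was at −0.40 (limma adjusted p = 1.8e-05) and Uqcrc2 at 0.12 (limma adjusted p = 0.0302), a call lost under 10 alternatives with adjusted p up to 0.391. In complex IV the extremes were tissue-specific forms. Cox6a2, the heart and muscle form of subunit 6A, averaged 88.7 ± 17.0 normalized reads in NUR77 libraries and 280 ± 8.21 in GFP libraries (log2 fold change −1.67, limma adjusted p = 1.57e-09). Cox4i2, the form of subunit 4 known from lung, averaged 19.2 ± 0.424 and 4.82 ± 0.927 (1.81, limma adjusted p = 3.04e-05). Cox4i2 passed the limit on low values only through the NUR77 libraries, where it was high; its limma adjusted p was 1.41e-06 with no limit, and it was not tested at a limit of 50. In complex V, Atp5k was at −0.80 (limma adjusted p = 5.28e-07) and Atp5s at 0.54 (limma adjusted p = 0.000397).

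**Figure D5:**
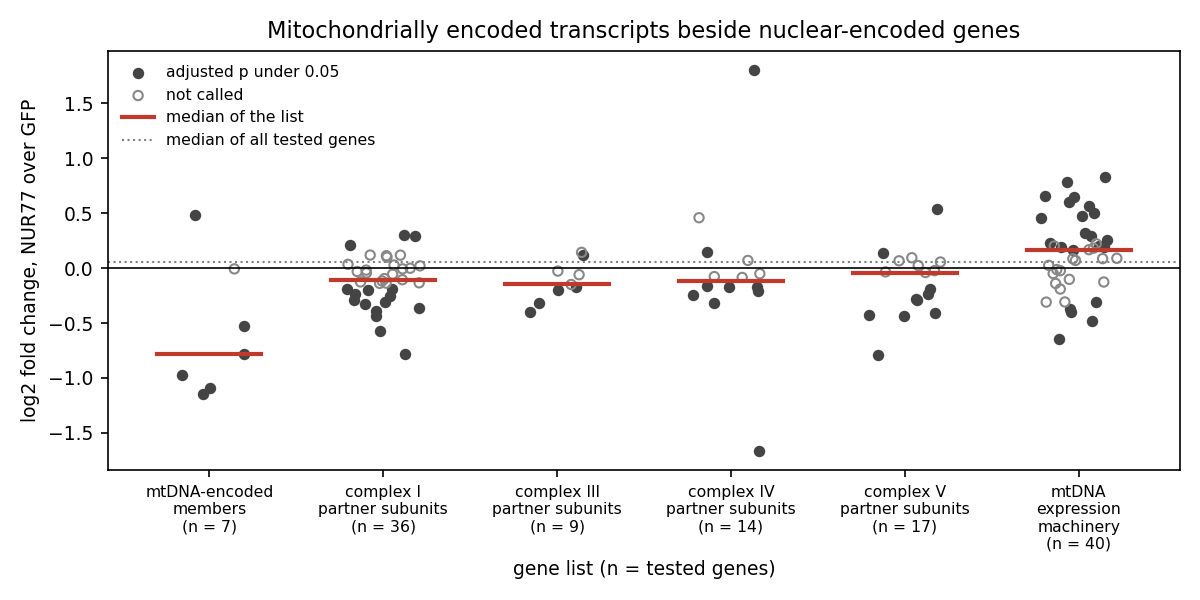
log2 fold change, NUR77 over GFP, of each tested gene in the mitochondrially encoded set and in 5 lists of nuclear-encoded genes; filled points had a limma adjusted p under 0.05, open points did not, red lines are list medians and the dotted line is the median of all 11201 tested genes. The encoded set has its median at −0.78, the 4 partner lists between −0.15 and −0.04 and the expression machinery at 0.17.

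The list of machinery that copies mtDNA and transcribes, processes and degrades its RNA held genes called in both directions. Of 40 tested genes, 17 were called higher in NUR77 cells and 5 lower, with a median log2 fold change of 0.17. Over all tested genes 38.4% were called higher and 28.3% lower, with a median of 0.06. The share called higher was near that of the whole table, and the share called lower was under it. Under TMM, upper-quartile and median-of-ratios scaling the split was 13 higher and 8 lower, and under TMM that of all tested genes was 3612 higher and 3835 lower. Without NUR77 replicate 1 it was 18 higher and 7 lower. The share called was 55%, beside 66.7% of all tested genes. The transcription core showed small differences. Polrmt, the polymerase, averaged 293 ± 25.0 normalized reads in NUR77 libraries and 295 ± 18.1 in GFP libraries (log2 fold change −0.01, limma adjusted p = 0.893). Tfb2m, which helps open promoters, was at −0.13 (limma adjusted p = 0.265) and Tefm, the elongation factor, at −0.05 (limma adjusted p = 0.686). Tfam, which packages mtDNA and starts transcription, averaged 583 ± 28.6 in NUR77 libraries and 511 ± 33.8 in GFP libraries (0.19, limma adjusted p = 0.0172), a call lost in 6 alternatives with adjusted p up to 0.129.

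Pnpt1 and Supv3l1, which degrade mitochondrial RNA, were called higher in NUR77 cells, and Lrpprc and Slirp, which protect it, were called lower. Pnpt1, the exonuclease of the mitochondrial degradosome, averaged 1137 ± 26.1 normalized reads in NUR77 libraries and 661 ± 36.9 in GFP libraries (log2 fold change 0.78, limma adjusted p = 2.65e-09). Supv3l1, its helicase partner, averaged 520 ± 5.14 and 375 ± 28.6 (0.47, limma adjusted p = 1.12e-05). Lrpprc, which stabilises and keeps polyadenylated the mitochondrial mRNAs, averaged 1575 ± 17.4 in NUR77 libraries and 2038 ± 99.1 in GFP libraries (−0.37, limma adjusted p = 7.42e-06), and its partner Slirp averaged 390 ± 20.6 and 482 ± 26.4 (−0.30, limma adjusted p = 0.000843). These 4 genes were chosen by name and the description extends to no other gene of decay or protection. Among all tested genes 66.7% were called, and whether these 4 bear on the mitochondrial transcripts was not tested. Mtpap, the mitochondrial poly(A) polymerase, was at 0.30 (limma adjusted p = 0.000716).

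Of the rest of the machinery, the largest called rises beside Pnpt1 were those of Clpx, an unfoldase of the matrix (0.83, limma adjusted p = 2.36e-09), Tfb1m, which methylates the small rRNA (0.65, limma adjusted p = 3.57e-06), Elac2, which trims tRNA 3′ ends (0.64, limma adjusted p = 8.93e-08), and Grsf1, an RNA-binding protein of mitochondrial RNA granules (0.60, limma adjusted p = 4.25e-08). The largest called falls beside Lrpprc and Slirp were those of Fastkd2, an RNA granule protein (−0.64, limma adjusted p = 3.17e-07), Angel2 (−0.48, limma adjusted p = 1.78e-06) and Polg, the mtDNA polymerase (−0.40, limma adjusted p = 2.77e-05). Fastkd2 averaged 282 ± 9.39 normalized reads in NUR77 libraries and 441 ± 18.6 in GFP libraries, and Clpx averaged 808 ± 41.1 in NUR77 libraries, against 453 in GFP libraries. Whether any of these differences bears on the mitochondrial transcripts was not tested.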

How the data were processed

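Polyadenylated RNA of 6 libraries, 3 NUR77 and 3 GFP, was grouped by the transgene in the titles. The authors deposited log2 values per gene and library, without pooling. From the values, each is a log2 of scaled reads with 1 added; with the log undone, each library sums to 10000000, and 100% of values were whole reads (tolerance 0.1 read). Per the submitters' processing notes the authors' tools were TopHat2 2.1, HTSeq and DESeq2, and the build was mm10; roles, strand setting, annotation release and the handling of reads with several matches are not stated there. Of the 23154 identifiers, 22888 were named through GENCODE M21.

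Genes with a mean of 10 normalized reads or more were tested with limma 3.58.1 in R 4.3.3. Input was log2(normalized reads + 1), that is a pseudocount of 1, with a mean-variance trend and robust settings, and Benjamini-Hochberg adjustment over all 11201 of them; fold changes are on that scale, so those of low genes are understated. Single values per library were compared with an exact two-sided permutation test. Transcripts were compared in windows of 50 and 100 bases and with BLAST+ 2.17.0. The deposited scaling fixes totals; TMM, upper-quartile, median-of-ratios and mtDNA-free totals, other pseudocounts, filters and limma settings, limma-voom on recovered reads, a replicate block and leaving out each library were the alternatives, and moved the median of all genes by at most 0.07 (log2) in size. Intervals of low genes are exact binomial intervals and cover counting error only, since PCR reads are not independent molecules. The dishes may differ only technically, so p-values reflect dish-to-dish spread within 1 line each. No library pair of a group agreed within sampling noise.

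The members and lists were chosen with earlier results of these data known. Named were all 10 members, every other mtDNA-encoded gene in the table, nuclear copies with a mean of 1 or more, the transcription core and poly(A) and stability genes, up to 5 called machinery genes in each direction by fold change, the highest and lowest called partner of each complex, and the 5 tested nuclear genes nearest in pattern.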

Additional observations from a re-analysis of the deposited data

How the results depend on the processing

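Each tested member was refitted under 17 alternatives. All 119 values kept their direction and their side of the threshold, and the same count of 6 members was called in each alternative, of 10 tested with no limit on low values and of 7 tested otherwise. Log2 fold changes ranged from −1.17 to −1.04 for mt-Nd1, −0.86 to −0.71 for mt-Nd2, −1.05 to −0.93 for mt-Nd4, −0.60 to −0.49 for mt-Nd5, 0.41 to 0.52 for mt-Nd6, −1.22 to −1.08 for mt-Cytb and −0.08 to −0.0017 for mt-Co1. Genes called over the whole table ranged from 6680 to 8429. Of 59 results, 46 were unchanged under all their alternatives. Fold changes were judged by direction and side of the threshold, counts by size, and the summed share and log2 ratios by direction alone. The complex III partner list went to 3 called genes under limma without trend, and to between 2 and 5 when 1 library was left out. Values that changed sign were mt-Rnr2 (−0.0646 under TMM, −0.0531 with upper quartiles, −0.0477 with median ratios, −0.0052 with mtDNA-free totals, −0.0396 to 0.0377 with 1 library left out), and, with 1 library left out, Polrmt (−0.0626 to 0.0589), Tefm (−0.0959 to 0.0217), mt-Tl1 (−0.419 to 0.0878) and Gm13340 (−0.176 to 0.0863). With mt-Cytb as the base, the ratios of mt-Nd1, mt-Nd2 and mt-Nd4 were 0.0504, 0.36 and 0.17, since the mean fall of mt-Cytb was larger than theirs. The order of mt-Cytb and mt-Nd1 was not settled. For the other sign changes the cause was not tested. With the replicate number as a block, 7585 genes were called against 7475 without it, and 6 members in both. Same-numbered dishes correlated at 0.0016, 0.1138 and 0.0447, and not every library correlated best with its own number. Whether the number marks anything the dishes share is not stated in the labels.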

Other observations

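The nuclear genes whose pattern over the 6 libraries lay nearest to that of the 10 summed members were Api5, Arhgap35, As3mt, Arhgap10 and Apip. Likeness was the root-mean-square difference of centred log2 values, which ran from 0.0217 for Api5 to 0.0248 for Apip. Api5, an inhibitor of apoptosis, averaged 2979 ± 112 normalized reads in NUR77 libraries and 4319 ± 94.3 in GFP libraries (SD, n = 3 each; log2 fold change −0.54). As3mt, an arsenic methyltransferase, averaged 225 ± 8.22 in NUR77 libraries and 324 ± 7.98 in GFP libraries (log2 fold change −0.53). The likeness is a description of 6 libraries that fall into 2 lines.

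Reads of mt-Nd1 per read of mt-Rnr2 came to 4.31 ± 0.253 in NUR77 libraries and 9.26 ± 0.477 in GFP libraries, with no overlap (exact two-sided permutation p = 0.1, the smallest possible). The summed mitochondrial rRNAs held 0.0675% of gene-counted reads in NUR77 libraries and 0.0682% in GFP libraries, which overlapped (exact permutation p = 0.9). That overlap rests on NUR77 replicate 1, at 0.0732%. NUR77 replicates 2 and 3, at 0.0641% and 0.0653%, lay below the lowest GFP library, at 0.0668%.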
